A study of Mus musculus with 6 samples.

Results

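The 29 genes described here encode the machinery that licenses and copies DNA in S phase: E2F transcription factors, origin licensing proteins, the MCM helicase, DNA polymerases, enzymes of nucleotide supply and a checkpoint kinase. They were taken as a list of named genes, each represented by its probe set with exactly 1 gene symbol and the highest mean over 6 arrays. All 29 were measured, among 19938 genes in all. RNA came from natural killer (NK) cells of the spleen of C57Bl/6 mice aged 8 to 12 weeks, sorted directly after harvest on YFP, CD27 and NK1.1 and without CD3. Of the 6 Affymetrix mouse gene arrays, 3 held cells of the genotype labelled 15a/16-1FKO, named for microRNA-15a and microRNA-16-1 and called the knockout here, and 3 held cells labelled Ctrl. Both genotypes passed the same YFP gate. The labels used here do not name the allele or driver behind it. The submitters describe each set of 3 arrays as technical replicates, but sex-dependent transcripts, given further on, differ between arrays of a genotype in a way that goes against repeats of a single RNA sample. The labels do not say whether arrays stand for separate mice or pools. Some arrays, given further on, carried transcripts of both sexes, which goes against a single mouse for each of those arrays. The p-values cover only the spread between these arrays. Levels are log2 values as deposited, so that a difference of 1 is a 2-fold change, and all differences are knockout minus Ctrl. No level of one gene is set against that of another, because probe sets differ in brightness.

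A cell copies its genome once per division. In G1 the origin recognition complex, CDC6 and CDT1 load the MCM helicase onto DNA. The helicase is then activated with GINS and MCM10, primase and the polymerases start new strands, and the sliding clamp PCNA, placed by the RFC loader, holds the polymerases on DNA. E2F factors, freed from RB proteins by cyclin-dependent kinases, drive transcription of many of these genes. MicroRNAs of the 15/16 family are known repressors of cell cycle genes, Cdc25a and Chek1 among them. CD27+ NK cells include the immature stages, in which part of the cells divide.

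The microRNAs removed in the knockout share their seed, the bases that pair with target messenger RNAs, with the copies that the genotype's name leaves in place. The mature sequences are shown for that reason, from RefSeq (GRCm38.p6), with the seed at bases 2 to 8 in capitals.
mmu-miR-15a-5p: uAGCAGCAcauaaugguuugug
mmu-miR-16-5p: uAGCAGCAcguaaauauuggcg
mmu-miR-15b-5p: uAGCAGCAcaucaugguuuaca
The first lies in Mir15a at chr14:61632075-61632096 on the minus strand. The sequence of miR-16-5p is encoded by both Mir16-1 (chr14:61631936-61631957, minus strand) and Mir16-2 (chr3:69009918-69009939, plus strand), and miR-15b-5p lies beside Mir16-2 at chr3:69009775-69009796. In all, 10 of 1679 mature names in the table carried this seed. Target sites in messenger RNAs were not analysed here.

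The probe set annotated to Mir15a was at 4.37, 3.53 and 3.43 in the knockout arrays (replicates 1 to 3) and at 7.14, 6.02 and 6.69 in the Ctrl arrays, lower in the knockout as labelled (difference -2.84, SE 0.31, adjusted p = 0.0296 by limma). That of Mir16-1 was at 2.61, 2.68 and 3.00 against 3.19, 3.20 and 3.77. Its difference did not pass the threshold (-0.63, SE 0.19, adjusted p = 0.999 by limma), and all its values lay under the background level of 4.13 described next. All 10 NK marker genes examined lay above background, with the gate genes Klrb1c (NK1.1) between 9.66 and 9.85 and Cd27 between 8.74 and 9.39 over the 6 arrays. As a measure of background, 95% of 1027 olfactory receptor genes had a mean under 4.13. By this level 4 of 10 T cell, 3 of 9 B cell, 3 of 9 myeloid, 6 of 10 neutrophil and 3 of 6 erythroid markers lay above background. The CD3 genes were among them in spite of the sort (Cd3d between 6.99 and 7.79), as was Cd28. The other T cell markers, Cd4, Cd8a, Cd8b1, Cd5, Cd6 and Themis, lay below background. The mean over each of these 5 lists overlapped between genotypes, for example 4.88 to 5.13 in knockout and 4.93 to 5.06 in Ctrl arrays for T cell markers. Of these markers, 0 passed the threshold by limma, and those with the lowest p were Cd28 of T cells (difference 0.43, SE 0.14) and S100a8 of neutrophils (difference 0.77, SE 0.32), the only ones with an unadjusted p under 0.05. Their part in the results was not tested. Sex-dependent transcripts varied within a genotype. Xist was at 9.65 and the Y-linked Eif2s3y at 2.33 in Ctrl replicate 1, and at 3.89 and 7.95 in Ctrl replicate 2. The other arrays carried both transcripts above background. Ctrl replicate 3 had Xist at 8.86 and Eif2s3y at 6.29. The knockout arrays had Xist between 7.56 and 8.84 and Eif2s3y between 6.18 and 7.875. In sorted bulk RNA, fewer dividing cells and less RNA per cell cannot be told apart.

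None of the 29 genes passed the threshold for a difference between genotypes. By limma with Benjamini-Hochberg adjustment over 19938 genes, 0 rose and 0 fell at an adjusted p under 0.05, where 0.0201% of all genes passed (0.015% higher and 0.00502% lower in the knockout). The smallest adjusted p among the 29 was 0.999. An unadjusted p under 0.05 was reached by 2 of them, Tk1 higher and Rfc3 lower, or 6.9% against 3.47% of all genes (1.55% higher and 1.91% lower). Differences were positive for 15 genes and negative for 14, and 51.7% positive stood beside 47.9% over all genes. The median difference was 0.00 and the median size of a difference was 0.13, beside 0.11 over all genes. For the 24 of them above background the median size was 0.144, beside 0.115 over the 10892 genes above background. For 23 of the 29 the genotype means differed by less than 1.2-fold, and 1, Tk1, differed by more than 1.5-fold.

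**Figure D1:**
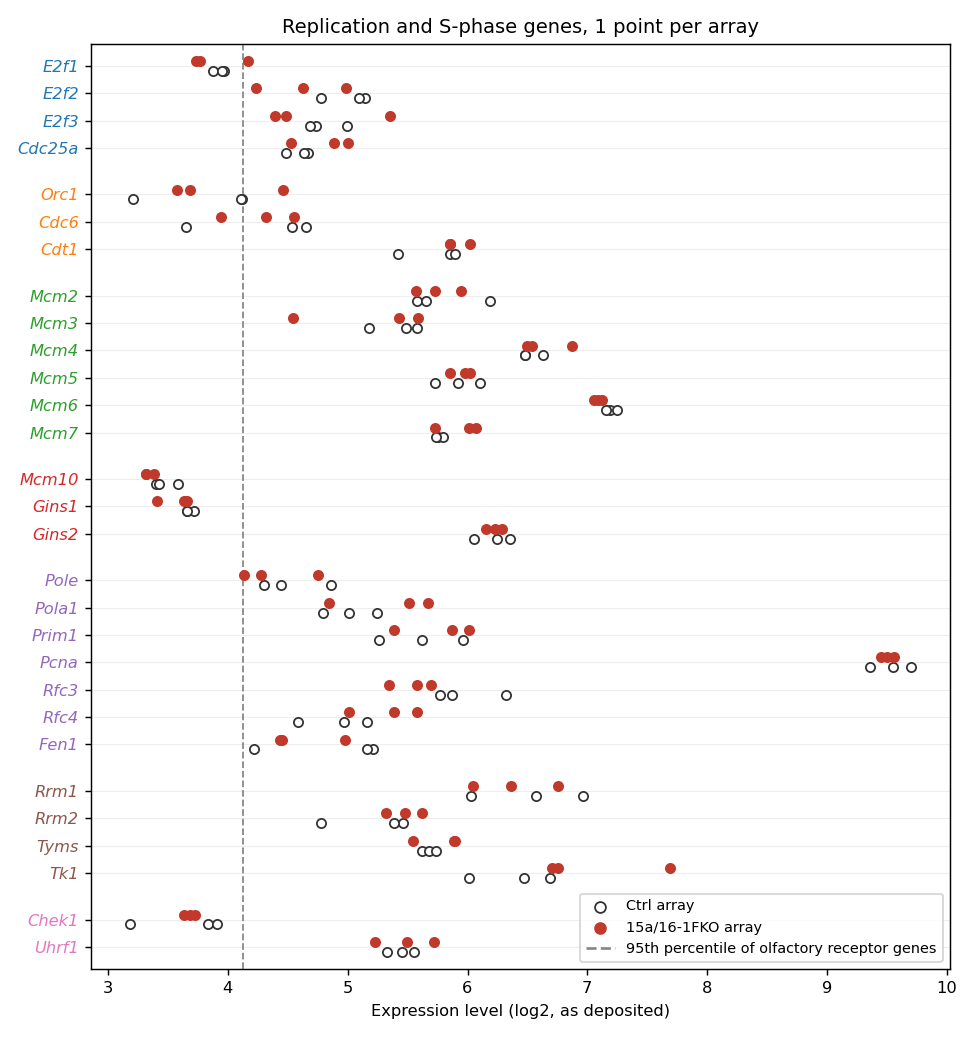
Expression level of each of the 29 genes on each array (x axis, log2 as deposited); open circles are the 3 Ctrl arrays, filled circles the 3 knockout arrays, and the dashed line is the olfactory receptor level of 4.13. Gene names are coloured by role. The points of the genotypes overlap for 25 genes and separate for Tk1, Rfc3, Mcm6 and Mcm10.

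The intervals show how large a change could have gone unseen. The 95% interval of the difference lay inside a 2-fold change in either direction for 28 of 29 genes, the exception being Tk1, with an upper bound of 1.28. For 15 of 29 it lay inside a 1.5-fold change, and for 11 of the 24 above background. Over all 19938 genes it lay inside a 2-fold change for 19485 and inside a 1.5-fold change for 14214. Standard errors ran from 0.13 to 0.29 with a median of 0.19. The knockout and Ctrl arrays did not overlap in 4 of 29 genes (13.8%, against 8.33% of all genes). Of these, 1 was higher (Tk1, 3.45% against 3.68%) and 3 were lower in the knockout (Rfc3, Mcm6 and Mcm10, 10.3% against 4.65%). With 3 against 3 arrays, an exact two-sided permutation test of a single gene cannot give a p below 0.1.

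**Figure D2:**
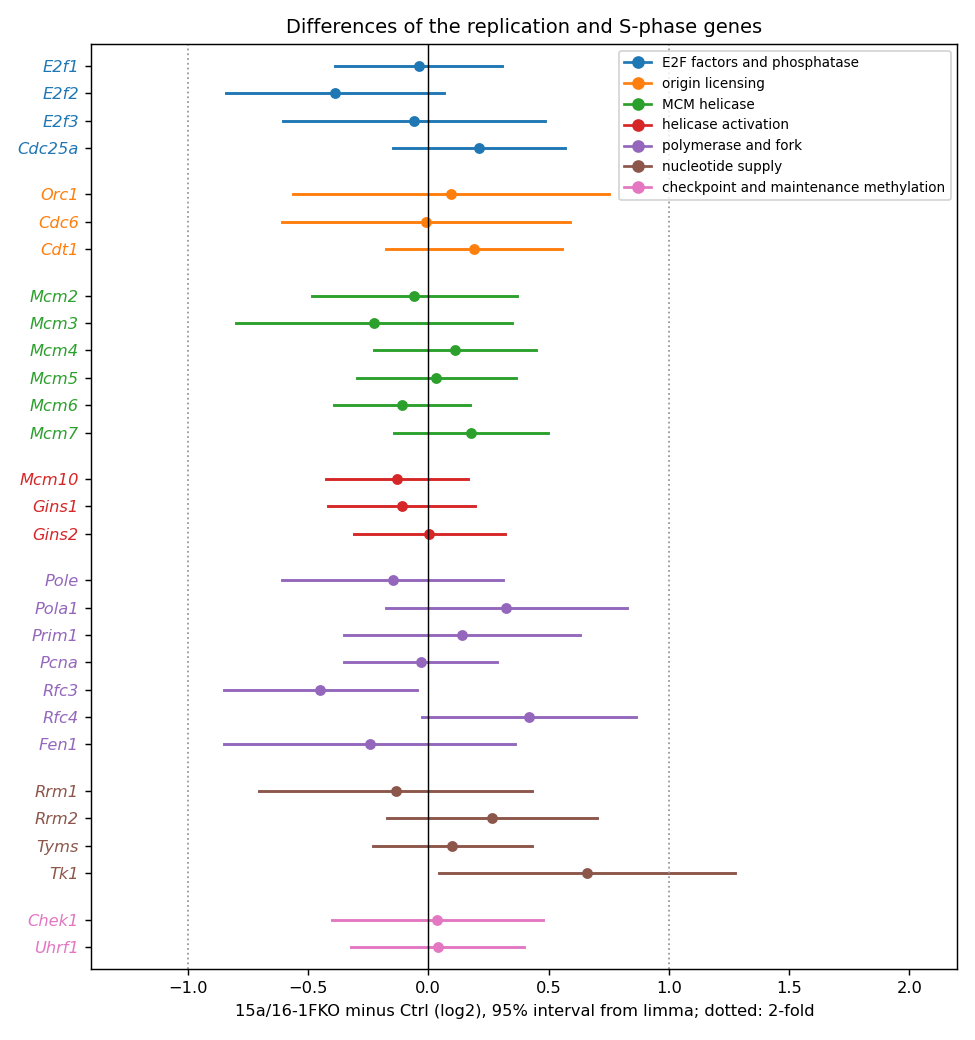
Knockout minus Ctrl difference of each gene (points, log2) with its 95% interval from limma (lines), coloured by role; dotted lines mark a 2-fold change. Intervals cross 0 for all genes except Tk1 (0.05 to 1.28) and Rfc3 (-0.85 to -0.05).

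Many of the 29 genes share an E2F consensus at their start. The genes were chosen by known S-phase role, and E2F factors drive many such genes. A high share of matches may therefore follow from the choice itself. RefSeq promoters (GRCm38.p6, 250 bases before to 50 after the annotated start) were found for 25 of the 29. The motifs TTTCCCGC, TTTCGCGC, TTTGCCGC and TTTGGCGC were searched on both strands, and matches could overlap. At least 1 was present for 13 of 25 genes (52%), against 2.6% of 27025 genes with a promoter and 4.8% of 8741 with a promoter and a level above background. In the other replication genes described further on it was present for 16 of 58 (27.6%), and in the G2/M markers for 1 of 15 (6.67%). The motif CCAAT was present for 17 of 25 genes (68%) and for 41.1% of all genes with a promoter. It was present for 26 of 58 of the other replication genes (44.8%) and for 13 of 15 G2/M markers (86.7%). For GC content each gene was represented by its listed promoter with the highest value. The median over the 25 genes was 57.3%, beside 53.3% over all genes with a promoter and 61.7% over those above background. The genes with an E2F match had 7 positive and 6 negative differences between genotypes (median 0.03), and those without had 6 and 6 (median 0.00). The genes without a promoter entry were Mcm4, Gins1, Gins2 and Pole.

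Windows of 60 bases around the most upstream match are shown, with matches in capitals, for the 10 genes with a match before the start. They are written on the strand of the gene and let the reader see the shared core in either orientation. In Mcm5 and Mcm6 matches on opposite strands overlap.
E2f3 (chr13:29986064-29986123, minus strand): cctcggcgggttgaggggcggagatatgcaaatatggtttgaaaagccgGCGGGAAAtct
Cdc25a (chr9:109875486-109875545, plus strand): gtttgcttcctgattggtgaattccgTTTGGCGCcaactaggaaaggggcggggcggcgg
Orc1 (chr4:108579394-108579453, plus strand): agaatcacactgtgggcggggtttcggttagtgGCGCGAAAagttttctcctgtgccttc
Cdc6 (chr11:98907987-98908046, plus strand): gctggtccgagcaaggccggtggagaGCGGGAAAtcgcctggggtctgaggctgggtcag
Mcm5 (chr8:75109330-75109389, plus strand): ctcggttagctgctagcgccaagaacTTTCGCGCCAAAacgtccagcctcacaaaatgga
Mcm6 (chr1:128359782-128359841, minus strand): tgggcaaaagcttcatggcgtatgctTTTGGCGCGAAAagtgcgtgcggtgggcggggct
Mcm7 (chr5:138172015-138172074, minus strand): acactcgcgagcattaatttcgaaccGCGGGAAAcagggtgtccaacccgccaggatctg
Pola1 (chrX:93632260-93632319, minus strand): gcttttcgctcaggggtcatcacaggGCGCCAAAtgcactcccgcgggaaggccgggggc
Rfc3 (chr5:151651209-151651268, minus strand): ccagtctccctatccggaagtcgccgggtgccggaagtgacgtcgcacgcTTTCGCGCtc
Uhrf1 (chr17:56304102-56304161, plus strand): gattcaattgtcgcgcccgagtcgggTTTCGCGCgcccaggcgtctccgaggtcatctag
A match describes these letters only, and binding was not measured.

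**Figure D3:**
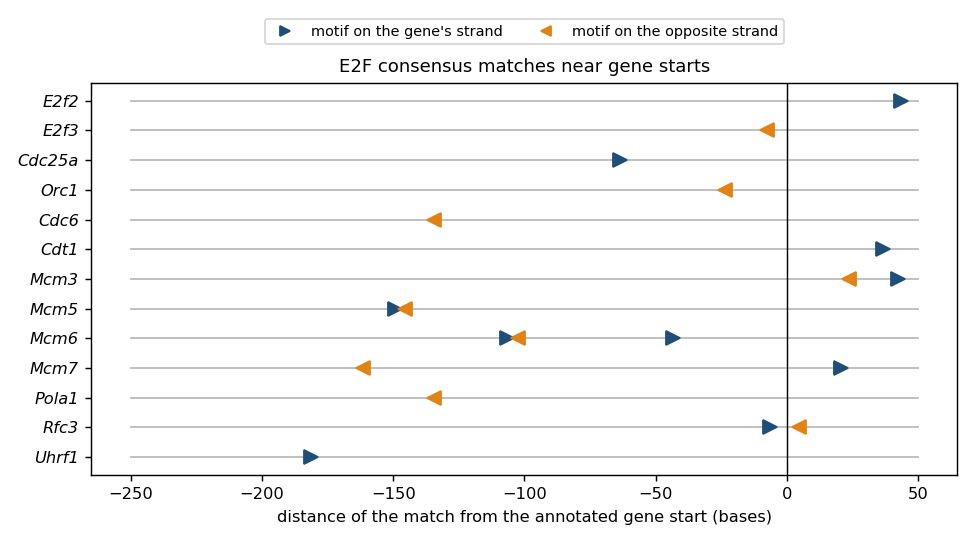
Position of each E2F consensus match (x axis, bases from the annotated gene start, upstream negative) in the 13 genes that had one; arrowheads point right for a match on the strand of the gene and left for one on the opposite strand. Matches lie between positions -185 (Uhrf1, second listed start) and 47 (E2f2).

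The E2F activators and Cdc25a did not differ beyond the spread between arrays. E2f1, an activator of S-phase genes, was at 3.73, 3.77 and 4.17 in knockout arrays and at 3.88, 3.96 and 3.95 in Ctrl arrays, around background. E2f2 was at 4.99, 4.63 and 4.24 in knockout and at 5.14, 4.78 and 5.10 in Ctrl arrays. Its knockout replicate 1 lay inside the Ctrl range and the other knockout arrays below it, which gave the lowest p of the factors (difference -0.39, SE 0.20, unadjusted p = 0.0842 by limma). Without knockout replicate 3 the E2f2 difference was -0.20 and without knockout replicate 1 it was -0.57 (unadjusted p = 0.318 and 0.0158 by limma). E2f3 was high on knockout replicate 1 alone (5.36, 4.39 and 4.49 against 4.74, 4.99 and 4.68), with a difference of -0.06 (SE 0.24). A second, dimmer probe set of E2f3 lay between 4.08 and 4.18 in knockout and between 4.18 and 4.48 in Ctrl arrays (difference -0.17, SE 0.14 in a fit over all 21789 probe sets with 1 symbol). Cdc25a encodes the phosphatase that activates the S-phase kinases and is a published target of the 15/16 family. It was at 5.004, 4.53 and 4.89 in knockout and at 4.67, 4.49 and 4.64 in Ctrl arrays. The lowest knockout array lay inside the Ctrl range, and the 95% interval of its difference of 0.21 ran from -0.15 to 0.57. Leaving out single arrays gave 0.11 to 0.35.

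The origin licensing genes varied more within a genotype than between genotypes. Orc1, the ATPase subunit of the origin recognition complex, was at 4.46, 3.57 and 3.69 in knockout and at 4.12, 4.11 and 3.21 in Ctrl arrays. Its difference was 0.09 (95% interval -0.56 to 0.75), and its mean lay under the olfactory receptor level. Cdc6, which brings the helicase to origins, was at 3.94, 4.32 and 4.55 against 4.65, 4.54 and 3.65, with a difference of -0.01 (SE 0.27). Cdt1, the partner of CDC6 in loading, was at 5.86, 5.85 and 6.02 against 5.85, 5.89 and 5.42, with a difference of 0.19 (SE 0.16) that was 0.04 without Ctrl replicate 3. In all 3 licensing genes Ctrl replicate 3 was the lowest of the 6 arrays.

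The genes of the helicase ring did not differ past the threshold. Of Mcm2 to Mcm7, which encode the subunits of the hexameric ring, 3 had positive and 3 negative differences, between -0.23 (Mcm3) and 0.18 (Mcm7). The 95% interval lay inside a 1.5-fold change for 5 of 6, all but Mcm3. Mcm6 had the smallest standard error of the 29: it was at 7.13, 7.06 and 7.09 in knockout and at 7.19, 7.25 and 7.16 in Ctrl arrays. All knockout arrays lay below all Ctrl arrays, by a mean of 0.11 (95% interval -0.39 to 0.18). Limma's interval is wider than this gene's own spread because the fit borrows variance from the other genes. Mcm7 was at 5.73, 6.07 and 6.01 against 5.76, 5.79 and 5.74, with knockout replicate 1 below the Ctrl range and the other knockout arrays above it. Mcm3 was low on knockout replicate 2 alone, at 4.54 against 5.17 to 5.58 on the other 5 arrays. Mcm2, Mcm4 and Mcm5 had differences of -0.06 (SE 0.19), 0.11 (SE 0.15) and 0.03 (SE 0.15).

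The genes that turn the loaded ring into an active helicase gave no difference past the threshold. Gins2, a GINS subunit, was at 6.23, 6.29 and 6.15 in knockout and at 6.25, 6.36 and 6.05 in Ctrl arrays (difference 0.00, 95% interval -0.31 to 0.32). Mcm10, which helps to start the fork, was at 3.32, 3.31 and 3.38 against 3.397, 3.58 and 3.43, without overlap between genotypes (difference -0.13, SE 0.13). Gins1 was at 3.41, 3.66 and 3.63 against 3.66, 3.71 and 3.66 (difference -0.11, SE 0.14). The levels of Mcm10 and Gins1 lay under the olfactory receptor level on all 6 arrays, where a difference can be understated.

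The genes of the fork held the lowest unadjusted p of the 29. Rfc3, a subunit of the loader that places PCNA on DNA, was at 5.58, 5.34 and 5.70 in knockout and at 5.87, 6.32 and 5.77 in Ctrl arrays. All knockout arrays lay below all Ctrl arrays, with the nearest values 5.70 and 5.77. The difference was -0.45 (95% interval -0.85 to -0.05, unadjusted p = 0.0324 and adjusted p = 0.999 by limma). Without Ctrl replicate 2, the highest array, it was -0.28 (unadjusted p = 0.135 by limma). Rfc4, another subunit of the same loader, had a difference of the opposite sign. It was at 5.58, 5.01 and 5.38 in knockout and at 4.58, 5.16 and 4.97 in Ctrl arrays, with knockout replicate 2 inside the Ctrl range (difference 0.42, SE 0.20, unadjusted p = 0.0625 by limma). Without Ctrl replicate 1 the Rfc4 difference was 0.26 and without knockout replicate 2 it was 0.58 (unadjusted p = 0.232 and 0.0200 by limma).

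The clamp and the polymerases overlapped between genotypes. Pcna was at 9.51, 9.45 and 9.56 in knockout and at 9.36, 9.55 and 9.70 in Ctrl arrays (difference -0.03, 95% interval -0.35 to 0.29). Pola1, the catalytic subunit of the priming polymerase and the only one of the 29 on the X chromosome, was at 5.67, 4.84 and 5.51 against 5.25, 5.01 and 4.79. Its knockout replicate 2 was the second lowest of the 6 arrays (difference 0.32, SE 0.22), and without that array the difference was 0.57 (unadjusted p = 0.0124 by limma), while without knockout replicate 1 it was 0.16 (unadjusted p = 0.510). Prim1, the catalytic primase subunit, had a difference of 0.14 (SE 0.22) and Pole, the catalytic subunit of the leading-strand polymerase, one of -0.15 (SE 0.20). Fen1, the nuclease that trims Okazaki fragments, was at 4.43, 4.98 and 4.45 against 4.22, 5.21 and 5.16. It was low on Ctrl replicate 1 and in knockout replicates 1 and 3 (difference -0.24, SE 0.27), and without Ctrl replicate 1 the difference was -0.57 (unadjusted p = 0.0213 by limma), while without Ctrl replicate 2 it was -0.07 (unadjusted p = 0.814).

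In nucleotide supply, Tk1 had the largest difference of the 29, and it rested on which probe set stood for the gene. Tk1 encodes the cytosolic thymidine kinase of the salvage pathway. Its brighter probe set was at 6.75, 7.69 and 6.71 in knockout and at 6.69, 6.47 and 6.01 in Ctrl arrays. The genotypes did not overlap, but knockout replicates 1 and 3 lay just above the highest Ctrl array and replicate 2 well above. The difference was 0.66 (95% interval 0.05 to 1.28, unadjusted p = 0.0379 and adjusted p = 0.999 by limma), and without knockout replicate 2 it was 0.34 (unadjusted p = 0.145 by limma). The dimmer probe set was at 4.99, 5.61 and 4.67 in knockout and at 5.03, 5.21 and 5.22 in Ctrl arrays. There the genotypes overlapped, with a difference of -0.07 (95% interval -0.58 to 0.44).

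The probe sets of this platform carry identifiers that follow the order of the genome, which allowed a check of position. For each probe set of the 29 genes, the 20 nearest identifiers annotated to other genes were looked up in the GRCm38.p6 gene table. For 30 of 32 probe sets most of these neighbours lay on the chromosome of the gene itself. The exceptions were the brighter probe set of Tk1 and the dimmer one of Pcna. Tk1 lies on chromosome 11, as did 20 of 20 neighbours of its dimmer probe set, while 14 of 20 neighbours of the brighter one lay on chromosome 8. Pcna lies on chromosome 2, and 19 of 20 neighbours of its dimmer probe set lay on chromosome 19. The Pcna probe sets ran in parallel, the brighter one higher by 0.11 to 0.14 on every array. Those of Tk1 did not, the gap ranging from 0.79 (Ctrl replicate 3) to 2.08 (knockout replicate 2). Probe sequences were not used here, and what the brighter Tk1 probe set hybridises to was not tested.

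**Figure D4:**
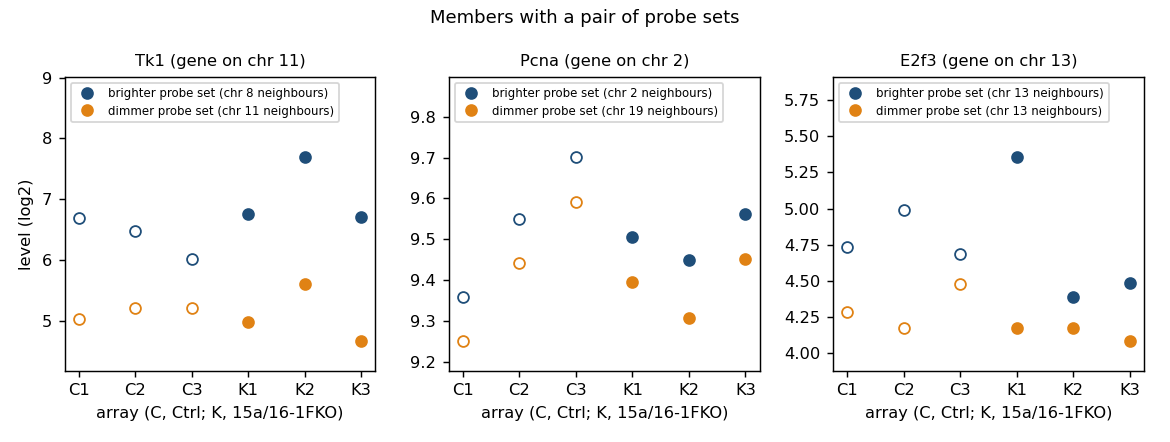
Level on each array (y axis, log2) of both probe sets of Tk1, Pcna and E2f3; open circles are Ctrl (C1 to C3) and filled circles knockout arrays (K1 to K3), and the y axes differ between panels and do not start at 0. For Pcna the probe sets keep a gap of 0.11 to 0.14, and for Tk1 the gap varies from 0.79 to 2.08.

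The other genes of nucleotide supply gave smaller differences. Rrm2, the S-phase subunit of ribonucleotide reductase, was at 5.32, 5.48 and 5.62 in knockout and at 4.78, 5.46 and 5.39 in Ctrl arrays. It was low on Ctrl replicate 1 alone (difference 0.27, SE 0.20), and without that array the difference was 0.05. Rrm1, the large subunit of that enzyme, was at 6.75, 6.05 and 6.36 against 6.03, 6.57 and 6.96, spanning nearly the same range in each genotype (difference -0.14, SE 0.25). Tyms, thymidylate synthase, had a difference of 0.10 (95% interval -0.23 to 0.43).

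The checkpoint kinase gene and Uhrf1 did not separate the genotypes. Chek1, which restrains the cycle when forks stall and is a published target of the 15/16 family, was at 3.63, 3.69 and 3.73 in knockout and at 3.19, 3.83 and 3.91 in Ctrl arrays. All 6 values lay under the olfactory receptor level, with a difference of 0.04 (SE 0.19). Uhrf1, which guides maintenance DNA methylation behind the fork, was at 5.50, 5.72 and 5.23 against 5.33, 5.56 and 5.45. Its knockout arrays spanned the Ctrl range on both sides (difference 0.04, 95% interval -0.32 to 0.40).

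Certain arrays were often the highest or the lowest among the 29 genes. Ctrl replicate 2 was the highest array for 9 of 29 genes and lay above the gene's own mean for 22, where 15.8% of all genes were highest and 50.8% above their mean on that array. Ctrl replicate 1 was the lowest array for 8 of 29, where 13.4% of all genes were lowest there. Ctrl replicate 3 was lowest for 7 of 29 (18.9% of all genes), and knockout replicate 1 was highest for 7 of 29 (16.2% of all genes). Ctrl replicates 2 and 1 carried the lowest and the highest Xist level respectively. Ctrl replicate 3 and knockout replicate 1 lay between them (8.86 and 7.56). The part of sex in this was not tested. Without Ctrl replicate 2, 19 of 29 differences were positive and their median was 0.10. The mean over the 29 genes was 5.38 ± 0.07 in knockout and 5.36 ± 0.11 in Ctrl arrays (SD, n = 3 each), with ranges of 5.33 to 5.46 and 5.30 to 5.49. By role, only the mean over nucleotide supply did not overlap (6.06 to 6.28 in knockout, 5.78 to 6.05 in Ctrl arrays), and it includes the brighter Tk1 probe set. Of its 4 genes, 1 did not overlap between genotypes, namely Tk1 by that probe set, whereas the dimmer Tk1 probe set overlapped. The median SD within a genotype was 0.27 for the 29 genes, 5 of which lay below background, and 0.22 for the genes above background.

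**Figure D5:**
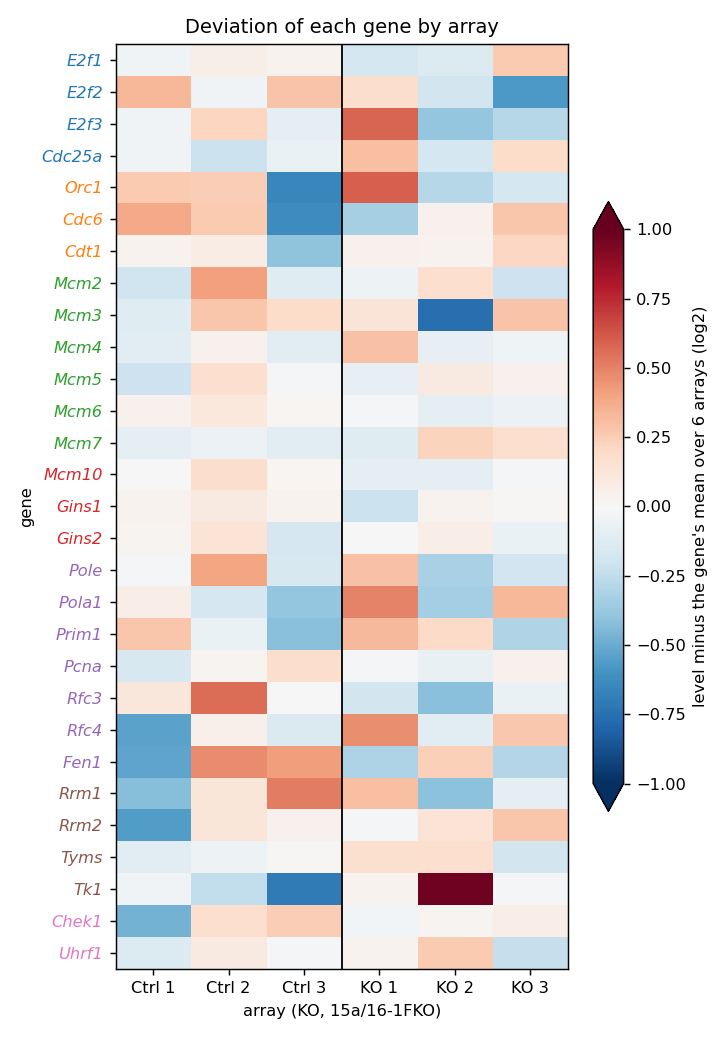
Deviation of each gene from its mean over the 6 arrays (colour, log2), with genes in rows and arrays in columns; the vertical line divides Ctrl from knockout arrays (KO). Ctrl replicate 2 lies above the mean for 22 of 29 genes, and no block of colour follows the genotype.

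Other genes of replication, listed by their known roles, gave no call either. Of 68 measured genes in 5 lists (origins and helicase, polymerases and fork, nucleotide supply, E2F and RB proteins, chromatin assembly), 0 rose and 0 fell by limma, and 1 had an unadjusted p under 0.05. Over all genes 3.47% had an unadjusted p under 0.05. Differences of the 68 were positive for 37 and negative for 31 (54.4% positive, against 47.9% of all genes), with a median of 0.02. The genotypes did not overlap for 3 of the 68 (4.41%, against 8.33% of all genes). The gene with an unadjusted p under 0.05 was Rpa3, the smallest subunit of the single-strand binding protein RPA. It was at 6.19, 6.33 and 6.44 in knockout and at 5.30, 5.98 and 5.56 in Ctrl arrays, without overlap (difference 0.71, 95% interval 0.29 to 1.12, unadjusted p = 0.00367 and adjusted p = 0.999 by limma). Pole3, an accessory subunit of the leading-strand polymerase, had a difference of 0.32 (SE 0.16). By list, differences were positive for 14 of 18 genes of origins and helicase (median 0.06), 10 of 25 of polymerases and fork (median -0.03) and 4 of 9 of nucleotide supply (median -0.08). They were positive for 7 of 10 E2F and RB genes (median 0.10) and 2 of 6 of chromatin assembly (median -0.09). The mean over the origin and helicase list did not overlap between genotypes (5.52 to 5.57 in knockout, 5.44 to 5.50 in Ctrl arrays), while the means of the other lists did. Its nearest values were 5.524 in knockout and 5.497 in Ctrl arrays, and among all single genes 8.33% did not overlap. None of the 29 genes lay on chromosome 14, which carries the deleted locus.

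Markers of G2 and mitosis, which rise after S phase, likewise held no gene past the threshold. Of 19 measured, 8 had positive and 11 negative differences (median -0.02), 0 passed by limma and 1, Bub1b, had an unadjusted p under 0.05. Positive differences made up 42.1%, against 47.9% of all genes, and 3.47% of all genes had an unadjusted p under 0.05. The genotypes did not overlap for 2 of the 19, Bub1b and Ccna2 (10.5%, against 8.33% of all genes). Bub1b, a spindle checkpoint kinase, was at 3.95, 4.12 and 3.76 in knockout and at 4.19, 4.24 and 4.53 in Ctrl arrays (difference -0.38, SE 0.16), close to background. Ccna2, the cyclin of S phase and G2, was at 6.19, 4.99 and 6.17 against 6.29, 6.21 and 7.10, also without overlap (difference -0.75, SE 0.34, unadjusted p = 0.0531 by limma). The proliferation marker Mki67 was at 6.96, 6.33 and 6.94 against 6.93, 6.63 and 6.73 (difference -0.02, 95% interval -0.45 to 0.41). Top2a, the topoisomerase of dividing cells, was at 6.82, 5.83 and 6.81 against 6.04, 6.26 and 6.64 (difference 0.18, SE 0.27). Knockout replicate 2 was the lowest array for Mki67, Top2a and Ccna2 as it was for Mcm3, while the brighter Tk1 probe set was highest there.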

How the data were processed

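The authors deposited 1 table of log2 values of 35556 probe sets on 6 arrays, with values from 0.74 to 13.6 and array medians from 4.23 to 4.33. RMA and Partek 6.6 are named by the submitters' processing notes without their order. No source used here names a genome build. Arrays carry no read depth, and their number limited the precision.

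Gene names came from the platform annotation at GEO (probe sets: 21789 with 1 symbol, 1621 with several, 12146 not listed). Checking symbols by Entrez identifier changed 0. Genotypes were compared with limma 3.58.1 in R 4.3.3 (lmFit, eBayes, two-sided, genotype as the only term) over 19938 genes, with Benjamini-Hochberg adjustment and a threshold of 0.05. The fit was tested on simulated data. No dim probe set was left out. The genes, the lists and the tests were chosen with earlier results of these data known. Named genes are all 29, the 4 other listed genes with the smallest p, Mki67 and Top2a, plus gate genes and leading markers. The olfactory receptor level was chosen after the data had been seen.

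Alternatives covered normalization, a filter on dim genes, the variance prior, array weights, the replicate number, single arrays left out, the choice of probe sets and sex-linked transcripts. Microarray probes of related genes or pseudogenes can share signal.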

Additional observations from a re-analysis of the deposited data

How the results depend on the processing

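No gene of the 29 and none of the other listed replication genes passed the threshold in any of the 16 alternative fits (limma, 0 to 3 of the 29 at an unadjusted p under 0.05), and 13 of the 29 kept their sign in all fits that gave them a value. With 4 genes called over all genes, leaving out single arrays gave 2 to 3, the covariate for sex-linked transcripts 2, and testing every deposited probe set gave 0 (limma, 1214 at an unadjusted p under 0.05). The replicate numbers occur in both genotypes. Deviations of same-numbered arrays correlated with r of 0.05, 0.15 and 0.14, each array best with its own number. For number 1 this was nearly a tie. Its r of 0.048 stood beside 0.042 (knockout replicate 1 with Ctrl replicate 2) and 0.045 (knockout replicate 3 with Ctrl replicate 1). The match is at most a weak hint from the data, and the design does not state it. With the replicate number as a block 3 genes were called, 0 of them among the 29. The sex covariate had nearly the same mean in both genotypes, so it could hardly move a difference. The filter on dim genes removed 6 of the 29. Signs turned for Cdc6 with centring (0.000152), a second quantile normalization (0.0130) and array weights (0.0315), for Gins2 with quantile normalization (-0.0285) and for Tk1 with its dimmer probe set (-0.0652). The last follows from the probe set. Centring shifts every gene alike, by 0.00901, which exceeds the size of the Cdc6 difference in the main fit (-0.00886). For the others the cause was not tested. Leaving out single arrays, the median over the 29 ran from -0.0599 to 0.10. The differences that turned ran from -0.18 to 0.0388 (E2f1), -0.36 to 0.12 (E2f3), -0.21 to 0.26 (Orc1), -0.32 to 0.18 (Cdc6), -0.17 to 0.13 (Mcm2), -0.43 to 0.0944 (Mcm3), -0.00757 to 0.18 (Mcm4), -0.0599 to 0.13 (Mcm5), -0.0797 to 0.0728 (Gins2), -0.33 to 0.0142 (Pole), -0.0344 to 0.33 (Prim1), -0.12 to 0.0512 (Pcna), -0.38 to 0.0843 (Rrm1), -0.19 to 0.17 (Chek1) and -0.0811 to 0.17 (Uhrf1). Signal near background limits E2f1, Orc1, Mcm10, Gins1 and Chek1.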
